A study of Mus musculus with 18 samples.

Results

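Expression of 8 genes linked to the surface colonocyte was examined in colon crypt epithelial cells of WT and Ern2-/- mice with different exposure to microbes. The genes were Aqp8, Aqp4, Clca6, Car1, Car4, Krt20, Abca12 and Gdpd2, taken as the rows of the gene count table with these symbols, and they are 8 of the 24047 genes listed there, or of 18217 genes that were counted at all. They were chosen from measured values of the same libraries, since earlier results on these counts had named Abca12 and Gdpd2 among the largest differences between CONV-Ern2-/- and CONV-WT crypts. Which values decided the choice of the other genes is not recorded, so differences of the 8 genes between groups are given as a description. Their p-values are not printed. Whether each of them passed the threshold of a call, given below, is stated as part of this description. Such a call, also one that stood in alternative fits, is no independent support for a difference. Adjusted p-values are printed only for genes outside the 8, whose lists were also chosen with earlier results known.

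RNA-Seq counts came from 18 mice on the C57BL/6 strain, with 3 libraries in each of 6 groups that joined a genotype label with a microbial state. GF-WT and GF-Ern2-/- mice were germ free. COLONIZED-WT and COLONIZED-Ern2-/- mice were germ-free animals that received a cecal homogenate from conventional WT mice and were examined 14 days later, and CONV-WT and CONV-Ern2-/- mice were raised with a conventional, specific pathogen-free microbiota. Ern2 encodes ERN2 (IRE1β), an endoplasmic reticulum stress sensor of mucosal epithelium, and Ern2-/- denotes its constitutive deletion in every tissue. The ages of these animals were not given in the sources used here. Nothing in the labels says whether animals of a group shared a litter or cage, so the spread between libraries is the spread between these samples.

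The colonic crypt is a gland whose cells divide near its base and mature as they move towards the lumen. At the top, absorptive colonocytes form the surface epithelium, where they take up salt and water, exchange bicarbonate and chloride, and carry a brush border. Genes of this last stage serve as markers of maturity. Water channels let water cross the cell membrane, carbonic anhydrases supply bicarbonate and protons for ion exchange, and keratins build the intermediate filaments that stiffen the cell. Intact crypts were isolated here on a strainer, so how much surface epithelium stayed attached to each preparation is not known, and in bulk libraries a lower number of cells of a type and less RNA per cell cannot be told apart.

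The smallest of the 18 libraries, CONV-Ern2-/- replicate 3, held 5865619 counts and the largest, GF-WT replicate 3, 23154481, and CONV-Ern2-/- replicate 2 was the next smallest. Normalized Ern2 counts lay between 1909 and 3100.3 in the 9 WT libraries. Of the libraries labelled Ern2-/-, 3 were within or above that range, namely COLONIZED-Ern2-/- replicate 1 and GF-Ern2-/- replicates 1 and 3. COLONIZED-Ern2-/- replicate 3 was just below it at 1884.6, another 4 lay between 998 and 1622 and GF-Ern2-/- replicate 2 was at 386, so every direction between genotypes refers to the labels. Counts over a whole gene do not show whether reads came from outside the deleted stretch, and this was not analysed here. Summed counts of 6 epithelial markers ranged over 105318 to 151632 in the 18 libraries, while those of 8 mesenchymal markers did not exceed 270.3. In GF-Ern2-/- replicate 2 and CONV-WT replicate 3 most of the 8 genes were far from the other libraries of their group. Genes were called at a DESeq2 adjusted p under 0.01 over all genes tested, and edgeR called far fewer, from 0 to 630 genes against 6 to 2482 in the 9 comparisons of groups.

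The promoter windows of Aqp8, Car4 and Krt20 are shown because Aqp8 and Car4 moved together over the libraries while Krt20 went with Clca6. RefSeq windows of build GRCm38.p6 were matched for 5 of the 8 genes, and the 250 bases before the annotated start are printed 5′ to 3′ on the strand of the gene.
Aqp8, chr7:123462044-123462293, plus strand: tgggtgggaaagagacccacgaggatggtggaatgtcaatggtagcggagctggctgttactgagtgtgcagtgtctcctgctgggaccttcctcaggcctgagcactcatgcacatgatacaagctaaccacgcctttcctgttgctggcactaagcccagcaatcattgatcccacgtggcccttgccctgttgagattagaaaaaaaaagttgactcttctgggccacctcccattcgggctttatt
Car4, chr11:84957504-84957753, plus strand: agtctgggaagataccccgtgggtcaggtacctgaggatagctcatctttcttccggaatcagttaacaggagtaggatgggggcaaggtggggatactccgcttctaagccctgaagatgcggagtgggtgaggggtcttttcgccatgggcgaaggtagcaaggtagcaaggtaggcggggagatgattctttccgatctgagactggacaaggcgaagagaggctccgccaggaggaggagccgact
Krt20, chr11:99438154-99438403, minus strand: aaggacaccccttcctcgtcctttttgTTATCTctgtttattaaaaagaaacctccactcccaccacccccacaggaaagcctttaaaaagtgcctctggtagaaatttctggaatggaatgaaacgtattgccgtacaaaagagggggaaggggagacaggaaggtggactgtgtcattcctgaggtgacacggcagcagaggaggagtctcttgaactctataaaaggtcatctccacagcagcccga
The capitals mark the reverse complement of AGATAA, the letters searched as a GATA core, with its first base at position -223 from the start of Krt20. Both strands of windows reaching from 250 bases before the start to 50 after it were searched for AGATAA and for 4 other sets of letters. These were TTTATG, a core of CDX sites, and CACACCC, a core of KLF sites, besides CAAAGTCCA for HNF4 and the AP-1 letters TGANTCA, and none of the 5 contains another. Besides Krt20, only the window of Abca12 held AGATAA, just after the start, and the other 4 sets of letters were absent from the windows of Aqp8, Car4, Krt20, Abca12 and Gdpd2. Of all 32851 windows of this length 11.9% held the CDX core, 11.2% the GATA core, 0.475% the HNF4 letters, 7.95% the KLF core and 7.81% the AP-1 letters. A match is a stretch of letters and not evidence of binding.

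Per kilobase of annotated exon, Car1 was by far the most abundant of the 8 genes, with a mean over the 18 libraries of 116030 normalized counts per kb. Krt20 followed at 4900 and Car4 at 1740.5, then Aqp4 at 1285 and Aqp8 at 1197, Clca6 at 401, Abca12 at 49.7 and Gdpd2 at 33.2. The genes also differed in how far single libraries lay apart. From the lowest to the highest library normalized counts spanned 138-fold for Abca12, 63.6-fold for Aqp8, 48.9-fold for Clca6, 29.7-fold for Gdpd2, 27.3-fold for Car1, 22.3-fold for Car4, 9.01-fold for Aqp4 and 7.24-fold for Krt20. Raw counts were lowest for Gdpd2, at 19, 35 and 36 in the 3 CONV-WT libraries, and values this small have a counting error of their own.

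**Figure D1:**
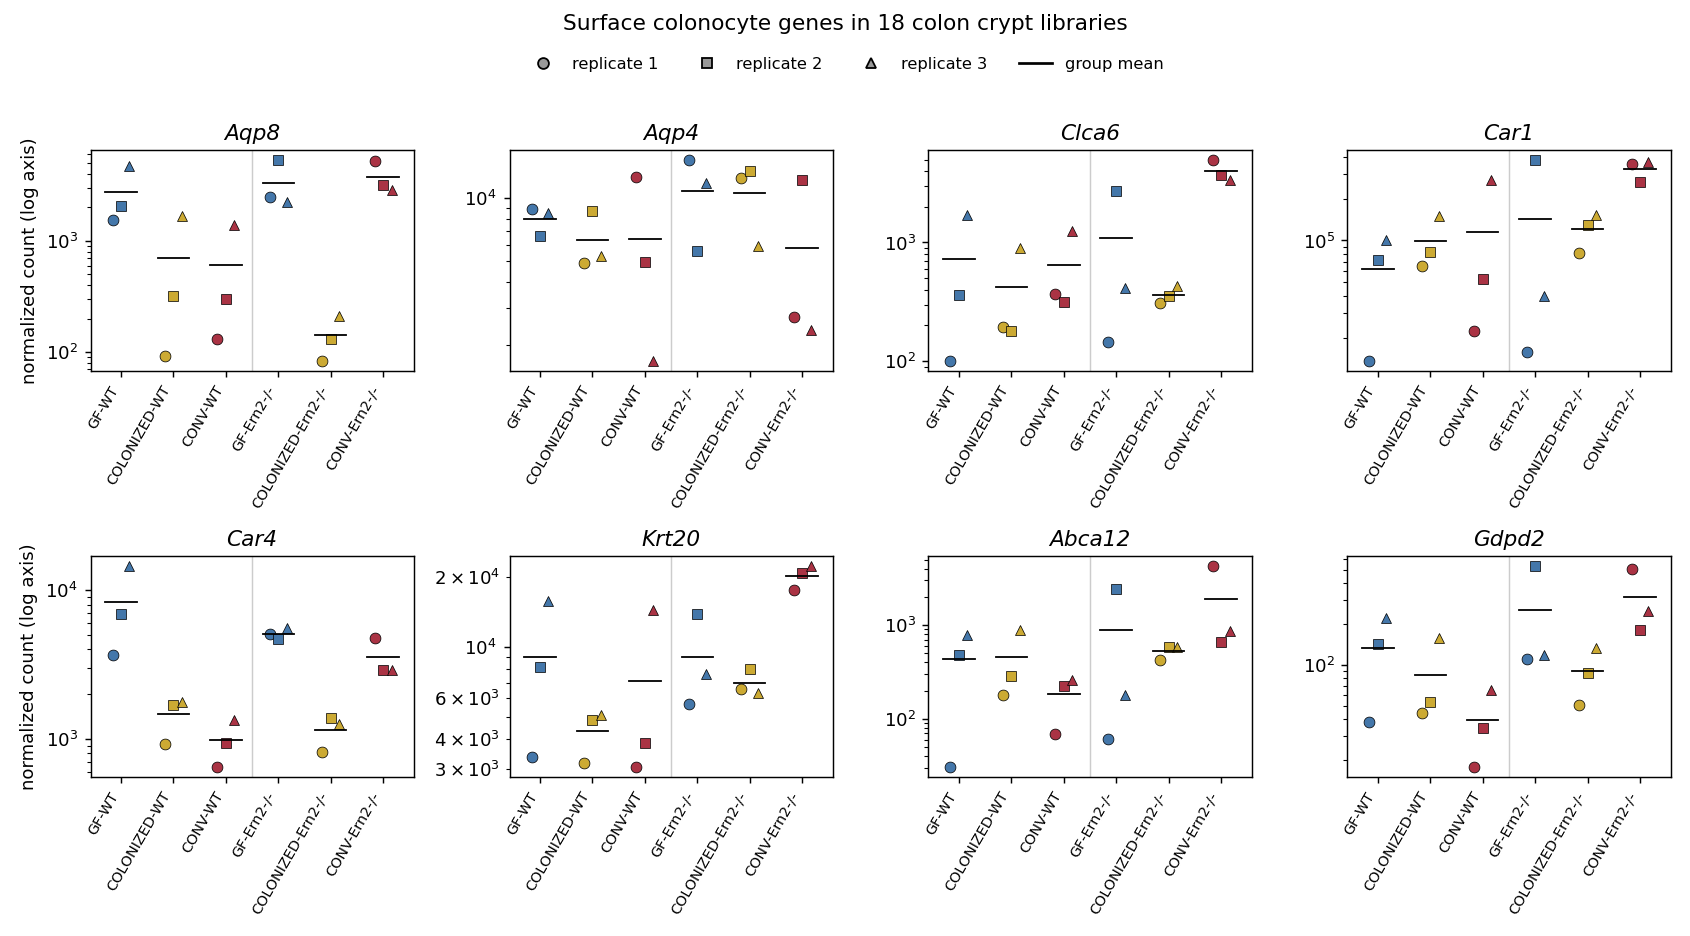
Normalized counts (log axis, scaled by DESeq2 size factors over all 18 libraries) of each gene in the 6 groups, 1 point per library with the replicate number as its shape and the group mean as a line. Krt20 and Clca6 are higher in the 3 CONV-Ern2-/- libraries than in every other library, Aqp8 and Car4 are low in all COLONIZED-Ern2-/- libraries, and Aqp4 shows no such pattern.

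Aqp8 (build GRCm38, chr7:123462291-123468004), a water channel of the colonocyte, was high without microbes under both genotype labels and also in CONV-Ern2-/- crypts. In replicates 1, 2 and 3 its normalized counts were 1555, 2047 and 4753 for GF-WT, 92.7, 319.5 and 1679.7 for COLONIZED-WT and 132, 301 and 1392 for CONV-WT. Under the Ern2-/- label they came to 2462, 5300.5 and 2234 for GF, 83.3, 131 and 211 for COLONIZED and 5263, 3210.5 and 2886 for CONV mice. The COLONIZED-Ern2-/- libraries were thus all below the GF-Ern2-/- and CONV-Ern2-/- libraries, whereas WT groups overlapped except for GF-WT and CONV-WT. By group mean the order ran from CONV-Ern2-/- (3787 ± 1289, SD, n = 3) over GF-Ern2-/- (3332 ± 1708), GF-WT (2785 ± 1722), COLONIZED-WT (697 ± 858) and CONV-WT (608 ± 684) to COLONIZED-Ern2-/- (142 ± 64.3). Every pair of neighbours in this order overlapped in range.

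Car4 (chr11:84957786-84966044), a carbonic anhydrase anchored to the outer face of the cell membrane, separated germ-free from colonized crypts in both genotypes. Normalized counts were 3684, 6855 and 14430.3 for GF-WT, 926, 1686 and 1761 for COLONIZED-WT and 648, 937 and 1337 for CONV-WT. With the Ern2-/- label they were 5051, 4676 and 5571 for GF, 810.3, 1389 and 1253 for COLONIZED and 4745, 2911 and 2922 for CONV mice. Every GF library was above every COLONIZED library, and CONV-Ern2-/- libraries were above all COLONIZED and CONV-WT libraries. The means were highest in GF-WT (8323 ± 5521, SD, n = 3), then 5099 ± 449 for GF-Ern2-/- and 3526 ± 1056 for CONV-Ern2-/-, with the 3 other groups between 974 ± 346 for CONV-WT and 1458 ± 462 for COLONIZED-WT. In this order only CONV-Ern2-/- and the next group, COLONIZED-WT, did not overlap.

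Car1 (chr3:14766216-14808368), a cytosolic carbonic anhydrase, did not follow Car4. Its normalized counts were 13732, 72496 and 100509 for GF-WT, 65577, 83278 and 149821 for COLONIZED-WT and 22612, 53108 and 269449 for CONV-WT. Those of the libraries labelled Ern2-/- were 15937, 374772 and 40171 for GF, 81220.2, 128825 and 153174 for COLONIZED and 352577, 263349 and 365884 for CONV mice. Single libraries set the spread here, since GF-Ern2-/- replicate 2 was the highest of all 18 and CONV-WT replicate 3 reached the range of CONV-Ern2-/-. The group means ran from 62246 ± 44287 (SD, n = 3) in GF-WT to 327270 ± 55756 for CONV-Ern2-/-, and all neighbours in the order of means overlapped.

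Clca6 belongs to a family of regulators of calcium-activated chloride channels and is listed today as Clca4a (chr3:144952480-144975045). It was low in most libraries, with 101, 364 and 1705 normalized counts in GF-WT, 193, 180.0 and 894 for COLONIZED-WT and 369.7, 314 and 1253 for CONV-WT. The libraries labelled Ern2-/- gave 145, 2702 and 411 for GF, 309, 352 and 430.3 for COLONIZED and 4918, 3726 and 3339 for CONV mice. All 3 CONV-Ern2-/- libraries lay above the other 15. The mean of 3994 ± 823 (SD, n = 3) in CONV-Ern2-/- stood apart from that of GF-Ern2-/- (1086 ± 1406), the next in order, while the other 5 groups overlapped one another. Near-identical relatives of this gene lie beside it in the genome, and how reads shared between them were counted is not given in the sources used here.

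Krt20 (chr11:99428403-99438150), the keratin of mature intestinal epithelium, had the narrowest range of the 8 genes. Normalized counts were 3349, 8158 and 15658 for GF-WT, 3175, 4824 and 5074 for COLONIZED-WT and 3053, 3875 and 14405 for CONV-WT. In mice labelled Ern2-/- they came to 5653, 13812 and 7622 for GF, 6579, 7994 and 6308 for COLONIZED and 17539.7, 20769 and 22109.5 for CONV. CONV-Ern2-/- libraries again exceeded all others, and COLONIZED-Ern2-/- libraries exceeded the COLONIZED-WT libraries. The CONV-Ern2-/- mean was 20139.5 ± 2349 (SD, n = 3) and the lowest was 4358 ± 1032 for COLONIZED-WT.

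Abca12 (chr1:71242276-71414910), a lipid transporter best known from the barrier of the skin, and Gdpd2 (chrX:100729873-100738895), a membrane enzyme that cleaves glycerophosphodiesters, were the least abundant. Abca12 counted 30.7, 483 and 792 for GF-WT, 179, 284 and 893 for COLONIZED-WT and 68.8, 225 and 257 for CONV-WT. In the libraries labelled Ern2-/- it counted 61.1, 2448 and 178 for GF, 426, 589.8 and 579 for COLONIZED and 4231, 658 and 861 for CONV mice. The CONV-Ern2-/- mean of 1917 ± 2007 (SD, n = 3) thus rested on replicate 1, although replicates 2 and 3 were also above all CONV-WT and COLONIZED-Ern2-/- libraries. Gdpd2 counted 38.4, 142 and 221 for GF-WT, 44.2, 53.6 and 157 for COLONIZED-WT and 17.9, 34.6 and 65.7 for CONV-WT. With the Ern2-/- label the Gdpd2 values were 110.4, 531 and 119 for GF, 50.6, 88.2 and 133 for COLONIZED and 512, 182 and 251 for CONV mice. For both genes CONV-WT had the lowest group mean (184 ± 101 for Abca12 and 39.4 ± 24.3 for Gdpd2), and all neighbours in the order of means overlapped.

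Aqp4 (chr18:15389496-15410982), a water channel of the basolateral membrane, did not follow the other genes. Movement over bulk libraries cannot show which genes mark surface colonocytes, so that name was not tested, for Aqp4 or for the remaining 7. Normalized counts of Aqp4 were 8919, 6600.4 and 8500.5 for GF-WT, 4937, 8729 and 5339 for COLONIZED-WT and 12635, 4974 and 1682 for CONV-WT. They were 15157, 5620.4 and 11824 for GF-Ern2-/-, 12443, 13559 and 5949 for COLONIZED-Ern2-/- and 2726, 12264 and 2362 for CONV-Ern2-/- libraries. Every group overlapped its neighbours in the order of means, which ran only from 5784 ± 5615 (SD, n = 3) in CONV-Ern2-/- to 10867 ± 4839.9 for GF-Ern2-/-.

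To describe how far the genes moved together, Pearson correlations of log2(normalized count + 1) were computed over the 18 libraries, which share groups, depth and preparation. All 21 pairs among the genes other than Aqp4 had a positive r, from 0.06 for Car1 with Car4 to 0.89 for Car1 with Abca12, with a median of 0.70. Aqp8 went most closely with Car4 (r = 0.85) and Clca6 with Krt20 (r = 0.88), whereas Aqp8 with Car1 (r = 0.30) and Car4 with Abca12 (r = 0.25) were weak. Of the 7 pairs with Aqp4 only that with Car4 had an r above 0 (0.04), and the lowest was -0.61 with Car1. After the group means were subtracted the 21 pairs without Aqp4 ranged from 0.55 to 0.93, and Car1 with Car4 was the lowest among them, so that libraries of the same group also differed in these genes together. Within groups the 7 pairs with Aqp4 lay between -0.66 and -0.29.

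**Figure D2:**
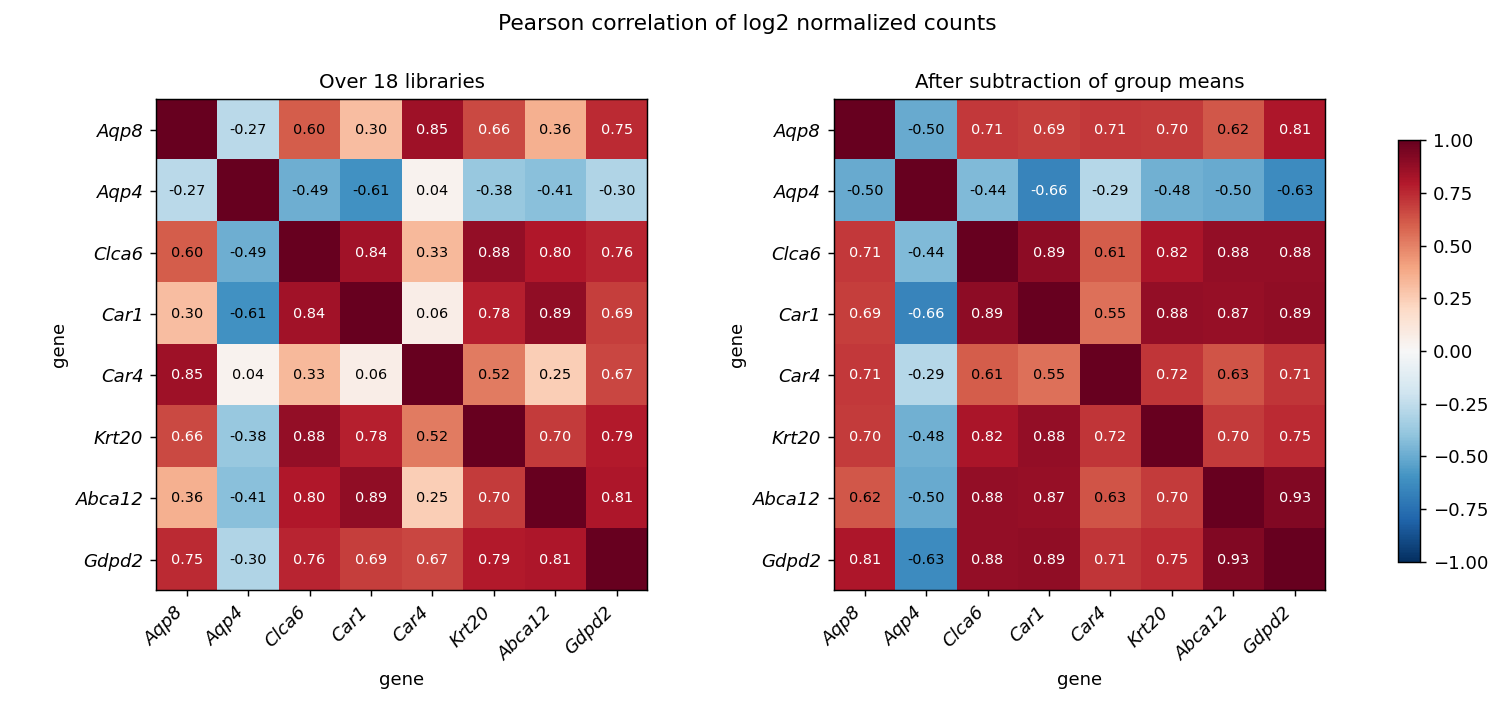
Pearson r of log2(normalized count + 1) between the 8 genes, over all 18 libraries (left) and after the mean of each group was subtracted (right), with the value written in each cell and the colour scale from -1 to 1. The row of Aqp4 is negative or near 0 where the 21 pairs of the other genes are positive, up to 0.89 on the left and 0.93 on the right.

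**Figure D3:**
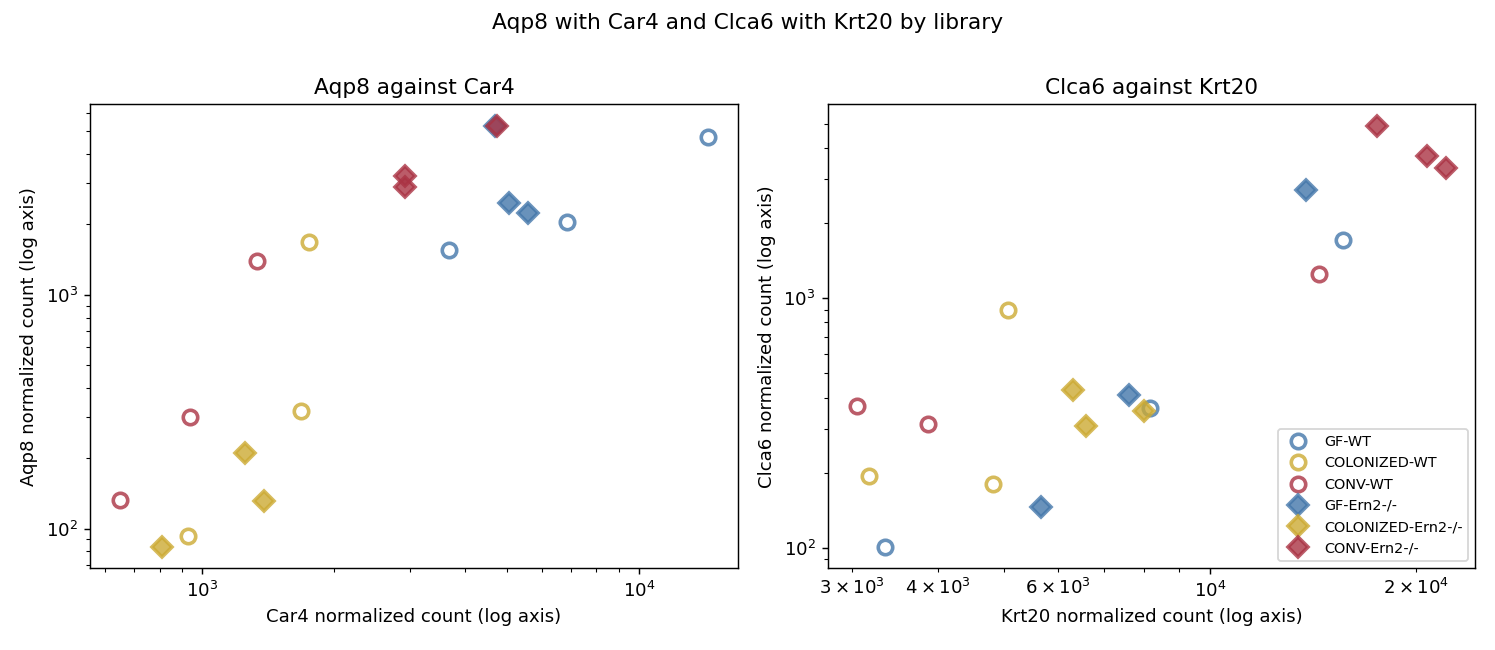
Aqp8 against Car4 (left) and Clca6 against Krt20 (right) as normalized counts on log axes, 1 point per library, with open circles for WT and filled diamonds for Ern2-/- and 1 colour per microbial state. In the left panel the 3 COLONIZED-Ern2-/- libraries lie low with Aqp8 at 211 or less, as do COLONIZED-WT replicate 1 (92.7) and CONV-WT replicate 1 (132), and in the right panel the 3 CONV-Ern2-/- libraries lie at the top with Clca6 at 3339 or more.

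The genes most like each member over the same 18 libraries, among 10844 genes with a mean of at least 50 normalized counts, were found by the same r. Slc26a3 (r = 0.92), Prr5l (0.91) and Ifngr2 (0.91) were closest to Aqp8, and Saa1 (0.96), Il22ra1 (0.96) and Sh3tc1 (0.95) to Car4. Slc26a3 is the chloride and bicarbonate exchanger of colonocytes, and Saa1 and Il22ra1 encode an acute phase protein and a subunit of the interleukin 22 receptor. Cpn1 (0.94), Lpin2 (0.94) and Fam118a (0.94) ranked first for Clca6, and Lrrc1 (0.96) and Mylk (0.96) were among the 3 closest to Krt20. Car1 was closest to 1810065E05Rik (0.98), Sct (0.97) and Ggt1 (0.96), Abca12 to Amn (0.95), Slc35d1 (0.94) and Abhd6 (0.94), and Gdpd2 to Fa2h (0.97), Gm8909 (0.95) and Ces2c (0.94). Aqp4 again had its own neighbours, with Ext1 (0.91), Myof (0.87) and Btn1a1 (0.86), and no gene ranked in the first 3 of more than 1 of the 8 genes.

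The question of what 14 days of colonization does to germ-free crypts was addressed by COLONIZED against GF mice within each genotype. In COLONIZED-WT against GF-WT crypts Car4 was called lower, with a log2 fold change of -2.51 (SE 0.62). Aqp8 (-2.00, SE 1.13) and Krt20 (-1.05, SE 0.61) had lower values that were not called. Car4 was called neither by edgeR (-2.49) nor with sex as a covariate (-2.30, SE 1.00). A covariate for the library total moved it to -1.61 (SE 0.58) without a call and Krt20 to 0.023. The median over the 8 genes was -0.72, against -0.01 over all genes, and 1 of 8 was called, where 17.8% of all genes tested were called in either direction. Without COLONIZED-WT replicate 1 the Car4 value was -2.27 and was not called, and without COLONIZED-WT replicate 3 Aqp8 was called at -3.75. Without GF-WT replicate 1 Krt20 was called at -1.45, while without GF-WT replicate 3 it was at -0.39, and without COLONIZED-WT replicate 2 Aqp4 was called at -0.63. From all 6 libraries log2 fold changes are printed where they were at least 1.5 times their SE, since 42 of the 52 smaller ones turned sign in at least 1 alternative.

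In COLONIZED-Ern2-/- against GF-Ern2-/- crypts both Aqp8 (-4.57, SE 0.41) and Car4 (-2.15, SE 0.24) were called lower. These 2 calls stood by edgeR and in all 6 fits that left out 1 library. Gdpd2 had a log2 fold change of -1.50 (SE 0.59), or -0.33 without GF-Ern2-/- replicate 2, and was not called, and with 2 called of the 7 genes that received an adjusted p (Abca12 had none) the share over all genes was 7.65%. GF-Ern2-/- replicate 2 weighed on the rest, and without it Car1 (2.12, SE 0.57) and Abca12 (2.17, SE 0.40) were called higher, where their values from all 6 libraries were below 0 and smaller than their SE. The GF-Ern2-/- libraries left in that fit are the 2 whose Ern2 counts were in or above the WT range. The test of a different response in the 2 genotypes gave -2.56 (SE 1.28) for Aqp8, or -0.80 without COLONIZED-WT replicate 3, and called none of the 8 genes, where 0.0280% of all genes were called (5 genes, or 1030 without adjustment at p under 0.05, against 0 by edgeR).

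Summed counts of 10 proliferation markers moved with Aqp8 and Car4 in the opposite direction. They ranged over 7065 to 11738 in GF-WT and 17833 to 19794 in COLONIZED-WT, and over 8129 to 11874 in GF-Ern2-/- and 19861 to 23666 in COLONIZED-Ern2-/- libraries. All 10 markers were called higher in COLONIZED-WT and 9 of 10 in COLONIZED-Ern2-/- mice, and none was at 0 in any group. Over the 18 libraries the sum had an r of -0.83 with Aqp8 and -0.855 with Car4, against -0.13 with Car1. Other lists moved in the same comparisons. Of 9 goblet markers 4 were called higher and 2 lower in COLONIZED-WT against GF-WT, with sums of 325978 to 441628 against 208237 to 330043, and 3 higher and 1 lower in COLONIZED-Ern2-/- against GF-Ern2-/-. Of 7 crypt base markers tested 1 was called higher in each of these comparisons, and 1 of 4 genes of distal position was called lower in the former. Of 5 tuft cell markers 4 were called higher in COLONIZED-WT against GF-WT, with sums of 1739 to 3144 against 834 to 1084, and 1 in COLONIZED-Ern2-/- against GF-Ern2-/-. Of 6 enteroendocrine markers 4 were called higher in COLONIZED-Ern2-/- against GF-Ern2-/-, with sums of 2572 to 7790 against 1051 to 1468, and none in the WT comparison. In COLONIZED-Ern2-/- crypts 1 of 2 endothelial markers tested was called lower than in GF-Ern2-/-. The r with Car4 was -0.62 for the tuft and -0.39 for the enteroendocrine sum. In CONV-WT against GF-WT 5 of the 10 proliferation markers were called higher, with sums of 11857 to 21461 in CONV-WT. There 3 of 5 tuft, 2 of 7 mesenchymal, 1 of 7 crypt base and 1 of 6 epithelial markers were called higher too, 2 of 9 goblet markers were called higher and 2 lower, and 3 of 4 genes of distal position were called lower. In CONV-Ern2-/- against COLONIZED-Ern2-/- crypts, where Aqp8 and Car4 were called higher, 5 of the 10 proliferation markers were called lower, with sums of 10957 to 15645 in CONV-Ern2-/- libraries. The part of these markers in the counts of Aqp8 and Car4 was not tested.

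CONV against GF mice asked how crypts raised with microbes from birth differ from germ-free ones. In CONV-WT against GF-WT crypts Car4 was called lower at -3.11 (SE 0.52), and Aqp8 (-2.20, SE 0.79) and Gdpd2 (-1.80, SE 0.70) were lower without a call. That is 1 of 8 genes beside 11.0% of all genes, whereas a covariate for the library total lost the call of Car4 (-3.51, SE 1.09) and gave one for Aqp8 (-4.98, SE 1.27). CONV-WT replicate 3 bore on this most, because without it Aqp8 (-3.69) and Gdpd2 (-2.36) were called as well, and Gdpd2 was also called without GF-WT replicate 1 (-2.25).

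In CONV-Ern2-/- against GF-Ern2-/- crypts none of the 8 genes was called, where 4.10% of all genes were, and Clca6, Car1 and Abca12 received no adjusted p. edgeR called 4 genes over all and 0 of the 8. Krt20 was higher by 1.15 (SE 0.33) and Clca6 by 1.88 (SE 1.10) on the log2 scale, while Aqp4 (-0.92, SE 0.57) and Car4 (-0.54, SE 0.26) were lower. The outcome rested on GF-Ern2-/- replicate 2, without which Abca12 (4.00), Clca6 (3.84), Car1 (3.54) and Krt20 (1.59) were called higher, again against only the 2 GF-Ern2-/- libraries with Ern2 in or above the WT range. Aqp4 was called lower at -2.10 without CONV-Ern2-/- replicate 2, was between -0.54 and -0.60 without GF-Ern2-/- replicate 1 or CONV-Ern2-/- replicate 1 or 3, and Car4 was called at -0.81 without CONV-Ern2-/- replicate 1. Of the marker lists, 4 of 9 goblet markers and 2 of 5 genes of distal position were called lower, and 3 of 6 enteroendocrine, 2 of 5 tuft, 1 of 7 crypt base and 1 of 7 mesenchymal markers higher.

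The test of a different response to conventional raising gave positive values for Car4 (2.56, SE 0.61), Aqp8 (2.38, SE 0.97), Gdpd2 (2.10, SE 1.02) and Krt20 (1.50, SE 0.85). None of the 8 genes was called, where 0.177% of all genes were (23 genes, or 1181 without adjustment at p under 0.05, against 0 by edgeR). Without CONV-WT replicate 3 Aqp8 (3.87), Car4 (2.85) and Krt20 (2.54) were called, and without GF-WT replicate 1 Car4 was called at 2.92. Krt20 was at 0.85 without GF-WT replicate 3 and Gdpd2 at 3.26 without GF-Ern2-/- replicate 2. Car4 was also called in 1 fit of all 18 libraries (2.56, SE 0.58) and with a covariate for the library total (2.54, SE 0.61). The fit of all 18 called 57 genes in place of 23.

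Both groups with microbes were then compared with each other. In CONV-WT against COLONIZED-WT crypts none of the 8 genes was called, where 0.108% of all genes were (16 genes, or 1234 without adjustment at p under 0.05, against 0 by edgeR). Values of at least 1.5 times the SE were -1.30 (SE 0.69) for Abca12, -1.13 (SE 0.66) for Gdpd2 and -0.59 (SE 0.38) for Car4. Without COLONIZED-WT replicate 3 both Abca12 and Gdpd2 were at -0.34, and without CONV-WT replicate 3 Gdpd2 was at -1.70 and Car4 at -0.89. Car4 was at -0.36 without CONV-WT replicate 1, and was called at -1.24 with a covariate for the library total.

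CONV-Ern2-/- against COLONIZED-Ern2-/- crypts, in contrast, differed in most of these genes. Aqp8 was called higher by 4.75 (SE 0.34) on the log2 scale, Clca6 by 3.47 (SE 0.22), Gdpd2 by 1.82 (SE 0.43), Car4 by 1.62 (SE 0.27), Krt20 by 1.54 (SE 0.18) and Car1 by 1.44 (SE 0.26). Abca12 was higher by 1.86 (SE 0.83) without a call, at 0.52 without CONV-Ern2-/- replicate 1 and called at 2.80 with a covariate for the library total. Aqp4 was the only one of the 8 with overlapping ranges. Over all genes 8.59% were called in either direction. For 7 of the 8 genes all 3 CONV-Ern2-/- libraries were above all 3 COLONIZED-Ern2-/- libraries, as they were for 17.7% of all genes tested. Abca12 and Gdpd2 had been named for high values in the same CONV-Ern2-/- libraries and the other 6 were chosen with these libraries in view, so nothing is read from these counts. In 1 fit of all 18 libraries the calls of Clca6 (3.46, SE 1.05), Car1 (1.43, SE 0.98), Krt20 (1.53, SE 0.53) and Gdpd2 (1.80, SE 0.70) were lost, while over all genes the number called went from 1125 to 432. Calls of Aqp8, Clca6, Car1, Car4 and Krt20 stood without any single library, whereas Gdpd2 was not called without CONV-Ern2-/- replicate 1 (1.27) or COLONIZED-Ern2-/- replicate 1 (1.53) or 2 (1.79). Without CONV-Ern2-/- replicate 2 Aqp4 was called lower (-2.06, SE 0.33), opposite to the others. edgeR called 3 of the 8 genes and 35 over all.

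**Figure D4:**
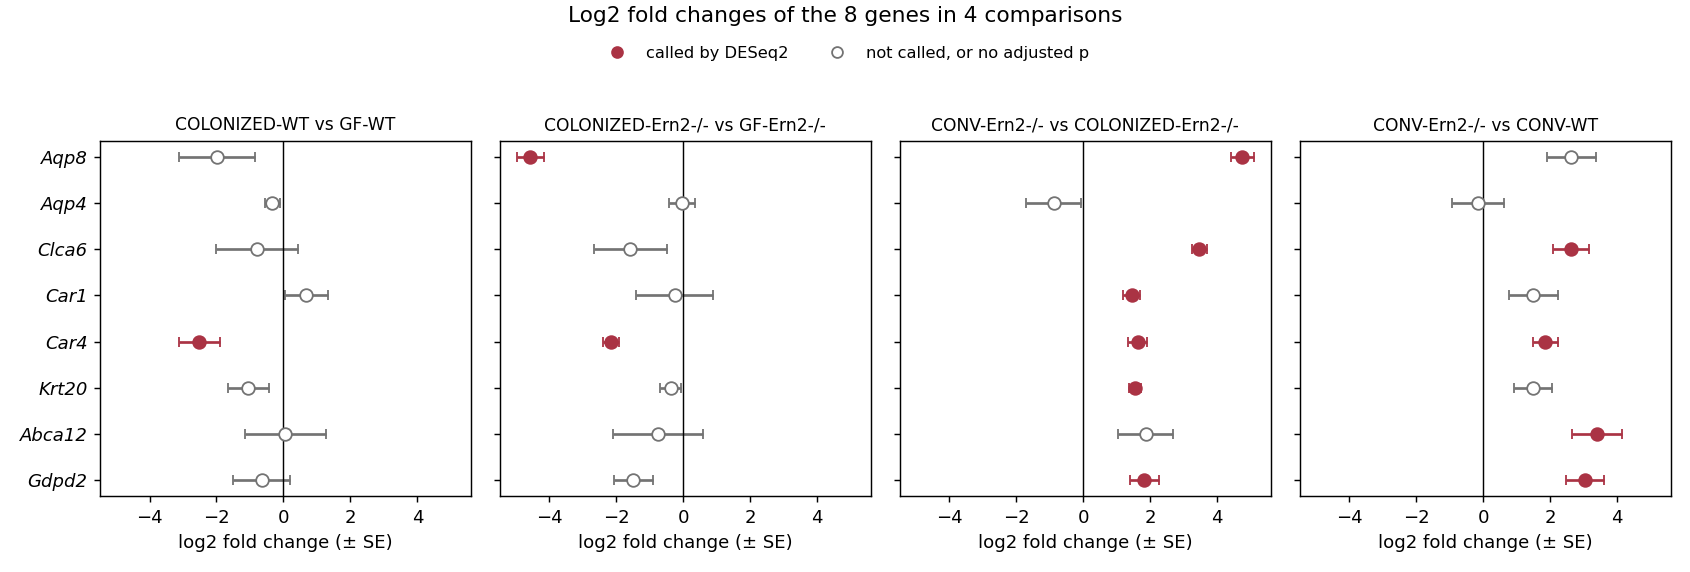
Log2 fold changes (horizontal axis) of the 8 genes in 4 comparisons of 3 against 3 libraries, with the SE as bars, filled red points for genes called by DESeq2 at an adjusted p under 0.01 and open points for the others. The points of COLONIZED against GF mice lie mostly below 0, down to -4.57 for Aqp8, and those of the CONV-Ern2-/- comparisons above 0 except for Aqp4.

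The genotype labels were compared within each microbial state. In CONV-Ern2-/- against CONV-WT crypts 4 genes were called higher, namely Abca12 by 3.39 (SE 0.74), Gdpd2 by 3.04 (SE 0.57), Clca6 by 2.63 (SE 0.54) and Car4 by 1.86 (SE 0.36) on the log2 scale. Aqp8 (2.64, SE 0.73), Car1 (1.50, SE 0.74) and Krt20 (1.50, SE 0.56) were higher without a call. With sex as a covariate Aqp8 (4.84, SE 0.74), Car1 (3.85, SE 0.72) and Krt20 (2.72, SE 0.64) were called, but all CONV-Ern2-/- mice were male. Since Abca12 and Gdpd2 had been picked out in this comparison, their values add nothing to the choice. Over all genes 2.87% were called, and of the 6 other genes 2 were. Each CONV-Ern2-/- library exceeded each CONV-WT library for 9.65% of all genes, and for 4 of these 6. The choice of the 6 also had results of these libraries in view, so nothing is read from these counts.

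One WT library weighed on the values of that comparison. Without CONV-WT replicate 3 Aqp8 (4.13), Car1 (3.11) and Krt20 (2.54) were called as well, while Abca12 (3.71, SE 1.17) was not. Abca12 was not called without CONV-Ern2-/- replicate 1 either (2.03), nor with a covariate for the library total (3.34, SE 1.06). In 1 fit of all 18 libraries the calls of Abca12 (3.38, SE 1.19) and Clca6 (2.63, SE 1.05) were lost. The number called over all genes went from 381 to 703 in that fit. edgeR called 0 of all genes in this comparison, and 1865 without adjustment at p under 0.05.

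In GF-Ern2-/- against GF-WT crypts none of the 8 genes was called, where 0.0350% of all genes were (6 genes, or 254 without adjustment at p under 0.05, against 0 by edgeR), and only Car4 reached 1.5 times its SE, at -0.70 (SE 0.41), or -0.038 without GF-WT replicate 3. In COLONIZED-Ern2-/- against COLONIZED-WT crypts none was called either, beside 1.20% of all genes (163 genes, or 2776 without adjustment at p under 0.05, against 1 by edgeR). Krt20 was higher by 0.67 (SE 0.19) there with no overlap of the groups, Aqp4 was higher by 0.75 (SE 0.29) and Aqp8 was lower at -2.30 (SE 1.09), or -0.55 without COLONIZED-WT replicate 3. Without COLONIZED-Ern2-/- replicate 3 Aqp4 was called at 1.04, and without COLONIZED-WT replicate 3 Abca12 (1.19) and Clca6 (0.96) were called. Of the marker lists, 3 of 9 goblet and 1 of 8 crypt base markers were called lower there.

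Whether CONV and COLONIZED mice differed in another way in the 2 genotypes was tested by an interaction that was chosen after the values had been seen. Car4 was called at 2.20 (SE 0.49), as 1 of 8 genes beside 0.325% of all genes. Aqp8 (4.93, SE 1.47), Abca12 (3.15, SE 1.19), Gdpd2 (2.94, SE 0.84) and Clca6 (2.84, SE 0.85) had larger values and larger errors without a call. This interaction contains the difference between CONV-Ern2-/- and CONV-WT in which Abca12 and Gdpd2 had been named, so their values are in part fixed by the choice. The Car4 call was lost in 8 of 12 fits that left out 1 library, each of COLONIZED-WT replicates 2 and 3, COLONIZED-Ern2-/- replicates 1 and 3, CONV-WT replicates 1 and 2 and CONV-Ern2-/- replicates 1 and 3, with values from 1.92 to 2.32. It was lost in 1 fit of all 18 libraries too (2.20, SE 0.58), where 7 genes were called in place of 40. Without COLONIZED-WT replicate 3 Aqp8 was at 3.19 and Clca6 at 1.68, and without CONV-Ern2-/- replicate 1 Abca12 was at 1.81. Without CONV-WT replicate 3 Aqp8 (6.43), Clca6 (3.77), Gdpd2 (3.51), Car1 (2.84) and Krt20 (1.87) were called too.

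Markers of other cells moved with the CONV-Ern2-/- libraries, in which Aqp8, Clca6, Car1, Krt20, Abca12 and Gdpd2 had their highest group mean. Summed counts of 9 goblet markers ranged over 67799 to 86450.0 in CONV-Ern2-/-, 92802 to 623456 in CONV-WT and 156847 to 304148 in COLONIZED-Ern2-/- libraries, and 6 of 9 were called lower than in CONV-WT and 5 of 9 lower than in COLONIZED-Ern2-/- crypts. The 8 crypt base and stem markers summed to between 6589 and 11794 in CONV-Ern2-/-, 7670 and 20392 in CONV-WT and 12397 and 17402 in COLONIZED-Ern2-/- libraries, and these ranges overlapped for CONV-WT. Of the 8, 1 was called higher and 1 lower than in CONV-WT and 1 lower than in COLONIZED-Ern2-/- crypts, and none of the goblet or crypt base markers was at 0 in any of these groups. Over the 18 libraries Krt20 had an r of -0.79 with the goblet sum and -0.86 with the crypt base sum, and Clca6 had -0.60 and -0.66. The 6 epithelial markers summed to 137814 to 143610 in CONV-Ern2-/-, 106831 to 121308 in CONV-WT and 117532 to 130697 in COLONIZED-Ern2-/- libraries. Of these 6, 1 was called higher than in COLONIZED-Ern2-/- crypts and none was called against CONV-WT. The r with the epithelial sum ran from 0.18 for Aqp4 to 0.71 for Gdpd2. CONV-WT replicate 3, in which all of the 8 genes but Aqp4 were the highest of their group, had the lowest goblet sum (92802) and crypt base sum (7670) of the CONV-WT libraries and the highest mesenchymal sum of all 18 (270.3). Against COLONIZED-Ern2-/- crypts 2 of 7 mesenchymal markers tested were called higher in CONV-Ern2-/- (sums of 28.2 to 193 against 10.7 to 21.1), as was 1 of 2 endothelial markers (57.9 to 120.1 against 27.9 to 61.2), and 2 of 6 enteroendocrine markers were called lower (2151 to 2872 against 2572 to 7790). None of these 3 lists had a call in CONV-Ern2-/- against CONV-WT. The part of these markers in the higher counts of the surface genes was not tested.

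Counts of genes that mark position along the colon also differed between libraries, as did sex. Position itself was not measured. Of 6 listed genes of distal position 5 were in the table, with Hoxb13 by far the most abundant. Their summed counts were 3836 to 8133 in the 6 GF libraries, 2477 to 4407 in COLONIZED-WT, 1381 to 4182 in COLONIZED-Ern2-/-, 588 to 2672 in CONV-WT and 82.8 to 1542 in CONV-Ern2-/- libraries, and 3 of 5 were at 0 in both CONV groups. Aqp4 had an r of 0.71 with this sum over the 18 libraries, Clca6 -0.68, Car1 -0.67, Krt20 -0.58, Abca12 -0.53, Gdpd2 -0.37, Aqp8 -0.19 and Car4 0.10. In CONV-Ern2-/- replicate 2, which had the highest sum of its group, Aqp4 was also highest. All 3 CONV-Ern2-/- libraries carried the Y-linked transcripts of males, compared with 0 of 3 in GF-WT. So did CONV-WT replicate 1, COLONIZED-WT replicates 1 and 3, and replicates 1 and 2 of both GF-Ern2-/- and COLONIZED-Ern2-/-. The part of position and sex in these values was not tested beyond the fits with sex as a covariate.

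Other genes of absorptive colonocytes, 32 written from general knowledge of which 31 were in the table, were set beside the 8 genes. This list was also chosen with earlier results of these data known, so its counts are a description. In COLONIZED-WT against GF-WT 11 of 31 tested genes fell and none rose, with a median log2 fold change of -0.83 against -0.01 over all genes, beside 17.8% of all genes called, and 1 fit of all 18 libraries called 6, where the number over all genes went from 2482 to 1288. Scnn1g, a subunit of the epithelial sodium channel, fell by 6.08 on the log2 scale (DESeq2 adjusted p 9.5e-10), Slc9a3, the apical sodium and proton exchanger, by 3.56 (adjusted p 0.00062) and Ceacam20 by 1.80 (adjusted p 3.4e-07). In CONV-WT against GF-WT 13 of 30 fell and none rose, beside 11.0% of all genes called, with a median of -1.17, among them Scnn1g (-6.82, adjusted p 7.4e-06), Slc9a3 (-3.80, adjusted p 1.2e-07) and Tmigd1 (-2.70, adjusted p 0.0050), and the Tmigd1 call stood in only 1 of 6 DESeq2 fits that left out 1 library. In COLONIZED-Ern2-/- against GF-Ern2-/- 10 of 31 fell and none rose (median -0.94), beside 7.65% of all genes, and of those called Scnn1g (-4.11), Slc9a3 (-2.70) and Slc26a3 (-1.89) fell the most. Every listed gene that was called in these 3 comparisons was thus called in the direction of Car4. Scnn1g was close to 0 once microbes were present, with group means of at most 4.96 normalized counts against 84.8 in GF-WT, so the size of its fold change depends on very few reads.

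In CONV-Ern2-/- against GF-Ern2-/- crypts 3 of 31 listed genes fell and none rose, beside 4.10% of all genes called, namely Scnn1g (-6.17), Scnn1b (-3.06) and Slc5a8 (-1.19), the butyrate transporter, whose call stood in 1 of 6 fits that left out 1 library. In CONV-Ern2-/- against COLONIZED-Ern2-/- 11 of 30 rose and 2 fell, with a median of 0.80, beside 8.59% of all genes called, but 1 fit of all 18 libraries called 2 listed genes in place of 13 and 432 in place of 1125 over all. Slc26a3 rose by 2.04 (DESeq2 adjusted p 2.2e-08), Fabp2, a fatty acid binding protein, by 1.74 (adjusted p 1.8e-13) and Cdkn1a, a cell cycle inhibitor, by 1.52 (adjusted p 4.3e-07), whereas Scnn1b (-1.67) and Slc5a8 (-1.11) fell, the former in only 1 and the latter in 2 of 6 fits that left out 1 library. In CONV-Ern2-/- against CONV-WT 12 of 30 rose and none fell (median 1.13), beside 2.87% of all genes. Of those called Tmigd1 (2.61), Slc26a3 (2.26) and Prap1 (2.20) rose the most, and the Prap1 call stood in 4 of 6 fits that left out 1 library. In the 3 other comparisons of groups 0 listed genes were called by DESeq2 or edgeR. The interactions called Ceacam20 (1.94) for CONV against GF, and Cdhr5 (1.39) and Guca2a (1.35) for CONV against COLONIZED mice, but Ceacam20 stood in 4, Guca2a in 6 and Cdhr5 in 4 of 12 fits that left out 1 library. edgeR called at most 1 listed gene in any comparison.

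Relatives of the 8 genes with at least 100 normalized counts on average were examined next. Of 11 aquaporins in the table only Aqp1 and Aqp11 besides Aqp8 and Aqp4 reached this level, and neither was called by DESeq2 in any comparison. Among 5 carbonic anhydrases of that level, Car2, a cytosolic form abundant in colonocytes, was called lower in COLONIZED-WT (-0.49) and COLONIZED-Ern2-/- (-0.75) against GF mice, Car9 was called higher in COLONIZED-WT against GF-WT (0.53), Car8 was called lower in CONV-Ern2-/- against CONV-WT (-1.52), and Car12 and Car13 were not called. Clca3, under this older symbol a product of goblet cells, was called lower in CONV-Ern2-/- against CONV-WT (-3.83), where Clca6 was called higher, and also in CONV-Ern2-/- against GF-Ern2-/- (-2.14) and COLONIZED-Ern2-/- against COLONIZED-WT (-2.02). Clca2 (1.47) and Clca4 (1.16) were called higher in COLONIZED-WT against GF-WT, and lower in COLONIZED-Ern2-/- against COLONIZED-WT (-0.82 and -0.53). Reads of such close relatives may have been split or shared. Calls of all relatives are those of DESeq2, and fits that left out 1 library are not given for them. The share of all genes called was 17.8% in COLONIZED-WT and 7.65% in COLONIZED-Ern2-/- against GF mice, and 4.10% in CONV-Ern2-/- against GF-Ern2-/-. It was 2.87% in CONV-Ern2-/- against CONV-WT and 1.20% in COLONIZED-Ern2-/- against COLONIZED-WT. In that order edgeR called 630, 27, 4, 0 and 1 genes.

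Of the keratins that pair with or accompany Krt20, Krt7 was called higher in COLONIZED-WT (0.90), CONV-WT (0.70) and COLONIZED-Ern2-/- (0.99) against GF mice and lower in CONV-Ern2-/- against COLONIZED-Ern2-/- (-0.63), Krt18 was called higher in CONV-WT against GF-WT (0.78), and Krt8 and Krt19 were not called. Abca1, a cholesterol exporter, was called lower in COLONIZED-WT (-1.33), CONV-WT (-1.93) and CONV-Ern2-/- (-1.72) against the GF mice of their genotype. In COLONIZED-WT against GF-WT Abca2 was called higher (0.65) and Abca3 lower (-0.64), and Abca7 was called nowhere. Among the relatives of Gdpd2, Gdpd3 was called higher in CONV-Ern2-/- against CONV-WT (2.66, DESeq2 adjusted p 1.4e-08), in the direction of Gdpd2. It was also called higher in COLONIZED-Ern2-/- against COLONIZED-WT (2.00, DESeq2 adjusted p 7.7e-05), where Gdpd2 was not called. Over all genes edgeR called 0 in the former comparison and 1 in the latter. Gdpd5 was called higher in COLONIZED-Ern2-/- against GF-Ern2-/- (1.25), and Gdpd1 was not called. For the remaining comparisons with calls here, 11.0% of all genes were called in CONV-WT against GF-WT (22 genes by edgeR). In CONV-Ern2-/- against COLONIZED-Ern2-/- the share was 8.59% (35 genes by edgeR).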

How the data were processed

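RNA was taken from colonic crypts of 18 mice. Per the labels and the study's methods, the authors made stranded mRNA libraries, read them as single ends of 75 cycles, aligned them with STAR in the VIPER pipeline and deposited raw counts for each gene symbol and library without normalization. The submitters' processing notes name build mm10. Tool versions, the annotation and the strand setting are not given in the sources used here.

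Columns were matched to libraries by the column numbers in the labels. Each of 9 comparisons was fitted on its own 6 libraries, and 3 interactions on 12, by Wald tests (R 4.3.3, DESeq2 1.42.0), keeping the default size factors and filters, with unshrunken fold changes and a Benjamini-Hochberg adjusted p under 0.01. DESeq2 and this threshold follow the study's methods. The quasi-likelihood test of edgeR 4.0.16 served as the main alternative. Fits were tested on simulated data, whose outcome is not reported here. Normalized counts used DESeq2 size factors over 18 libraries, and log2 values a pseudocount of 1. The most similar genes were the 3 with the highest r, of which 1 is not reported here. Of the other colonocyte genes, the 3 called with the largest change in each direction, or those reached among fewer calls, are named. Libraries of a group were no repeats of each other, since their chi-square per degree of freedom was at least 13.4. Gene positions come from GENCODE M21 and promoters from RefSeq. The 8 genes and all lists were chosen with earlier results of these data known. The other alternatives were TMM size factors, a filter of at least 10 counts in 3 libraries, each library left out in turn, a replicate block, sex or library total as a covariate, 1 fit of all 18 libraries, and the libraries labelled Ern2-/- with Ern2 in the WT range left out. The interaction of CONV against COLONIZED mice was added after the data had been seen. In a comparison of 6 libraries, p-values measure the spread between these samples only.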

Additional observations from a re-analysis of the deposited data

Results flagged for a closer look

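Car4 was flagged because the main DESeq2 fit gave a different estimate of CONV against COLONIZED crypts under each genotype label. The interaction was 2.20 on the log2 scale (SE 0.49) and was called by DESeq2. Mean normalized counts were 1458 in COLONIZED-WT and 974 in CONV-WT, and 1151 in COLONIZED-Ern2-/- and 3526 in CONV-Ern2-/-. This test was added after the values had been seen, edgeR did not call it, and the call was lost in 11 of 20 alternatives.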

How the results depend on the processing

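Of 96 log2 fold changes of the 8 genes, 44 were at least 1.5 times their SE and are printed, and 42 of the other 52 turned sign in at least 1 alternative. Each printed value kept its direction in all alternatives but 2. Krt20 in COLONIZED-WT against GF-WT turned to 0.023 with the library total as a covariate, and the cause was not tested. Aqp4 in CONV-Ern2-/- against GF-Ern2-/- turned to 0.031 without the libraries labelled Ern2-/- with Ern2 in the WT range. That fit left GF-Ern2-/- replicate 2 as the only germ-free library, so nothing is read from it. edgeR lost 10 of the calls, a low count filter or TMM size factors moved 1 call each, and sex as a covariate moved 4. Raw counts of 19 to 36 limit Gdpd2 in CONV-WT.

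Leaving out each library in turn, the number of the 8 genes called ran from 0 to 2 in COLONIZED-WT against GF-WT, 1 to 3 in CONV-WT against GF-WT, 2 to 4 in COLONIZED-Ern2-/- against GF-Ern2-/-, 0 to 4 in CONV-Ern2-/- against GF-Ern2-/-, 5 to 7 in CONV-Ern2-/- against COLONIZED-Ern2-/-, 3 to 6 in CONV-Ern2-/- against CONV-WT and 0 to 2 in COLONIZED-Ern2-/- against COLONIZED-WT. It ran from 0 to 3 in the interaction of CONV against GF and from 0 to 6 in that of CONV against COLONIZED, and was 0 throughout in the other comparisons. How many of all genes were called with a library left out or a covariate added is not given here. Such counts thus describe the 8 genes alone.

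In COLONIZED-WT against GF-WT, with 1 gene called, edgeR gave 0, as did a covariate for sex or one for the library total. In CONV-WT against GF-WT edgeR gave 0 in place of 1, and the library total as a covariate lost Car4 and gained Aqp8. COLONIZED-Ern2-/- against GF-Ern2-/- gave 7 in place of 2 without the libraries with Ern2 in the WT range, but the germ-free arm was then GF-Ern2-/- replicate 2 alone, which stood apart and was assumed to vary like the other libraries, so nothing rests on that fit. CONV-Ern2-/- against GF-Ern2-/- gave 1 in place of 0 with the low count filter, and CONV-WT against COLONIZED-WT 3 in place of 0 with the library total. CONV-Ern2-/- against COLONIZED-Ern2-/- gave 3 by edgeR and 2 in 1 fit of all 18 libraries, in place of 6. CONV-Ern2-/- against CONV-WT gave 0 by edgeR, 7 with sex, for which all CONV-Ern2-/- mice were male, and 2 in the fit of all 18, in place of 4. The interaction of CONV against GF gave 1 with the library total and 1 in the fit of all 18, in place of 0, and that of CONV against COLONIZED gave 0 by edgeR, 0 in the fit of all 18 and 0 without the libraries with Ern2 in the WT range, in place of 1.

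Replicate numbers were not taken to pair the libraries, since in no comparison were all 3 correlations between libraries of the same number above 0.1. This rule cannot exclude a pairing. In CONV-WT against COLONIZED-WT the correlations were 0.191, 0.0886 and 0.125. With a replicate block 3 of the 8 genes were called in COLONIZED-WT against GF-WT, 3 in CONV-WT against GF-WT, 2 in CONV-Ern2-/- against GF-Ern2-/- and 1 in COLONIZED-Ern2-/- against COLONIZED-WT. The block in CONV-Ern2-/- against CONV-WT lost the call of Abca12 (2.85, SE 1.14) and gained Car1 (2.25) and Krt20 (1.87). The interactions gave 1 for CONV against GF and 4 for CONV against COLONIZED. Shares over all genes in the blocked fits are not given here, so nothing is read from these counts. Every library correlated best with its own number in CONV-WT against COLONIZED-WT only.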
